A study of Mus musculus with 4 samples.

Results

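The genes described here mark the disease-associated state of microglia and the lipid-associated state of macrophages. Of the 10 genes listed by symbol (Trem2, Tyrobp, Gpnmb, Spp1, Igf1, Itgax, Lgals3, Cst7, Clec7a and Cd9), 9 were analysed, of 32285 genes in the count tables, and Clec7a was not analysed here. The listed genes are known marks of these states, and the choice was made with earlier results of these data known. They were followed in microglia, macrophages, monocytes and the remaining phagocytes, called intermediate cells, in mice given SCDi and in mice given vehicle.

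The study placed EO771 cells, a mouse mammary cancer line made to express GFP, in the brains of female C57BL/6 mice with an intact immune system. Brains were dissociated after 14 days of SCDi or of vehicle, and live cells were sorted as tumour cells (CD45-, GFP+) or immune cells (CD45+, GFP-) for droplet-based 3' RNA sequencing with unique molecular identifiers (UMIs). The groups were SCDi immune cells, vehicle immune cells, SCDi tumour cells and vehicle tumour cells, each 1 library from 3 pooled mice. The sources used here do not give the compound and dose behind the name SCDi or the age of the mice. With 1 library a group there is no replicate check and no test, so every interval below is a 95% interval that covers counting error only, and every ratio compares 2 libraries.

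TREM2 is a receptor on myeloid cells of the brain and other tissues that binds lipids, lipoproteins and debris, and it signals through the adaptor TYROBP, also called DAP12. Microglia around plaques or demyelinated tissue lower their homeostatic genes, such as P2ry12 and Tmem119, and switch on a programme that includes Spp1, Gpnmb, Itgax, Lgals3, Cst7 and Igf1, and the later part of that programme needs Trem2. Macrophages that take up lipid in fat tissue, arteries and tumours carry an overlapping set, with Trem2, Gpnmb, Spp1 and Cd9.

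The promoters of Trem2, Gpnmb and Spp1 are shown because Trem2 is the receptor of the programme, while Gpnmb and Spp1 separated microglial states below and Trem2 did not. The sequences are the 250 bases before the RefSeq start on build GRCm38.p6, read 5' to 3' on the plus strand, at chr17:48346151-48346400 for Trem2, chr6:49036268-49036517 for Gpnmb and chr5:104434861-104435110 for Spp1. Capitals mark the AP-1 motif TGANTCA and the PU.1 motif GAGGAAG or its reverse complement, searched on both strands.
Trem2: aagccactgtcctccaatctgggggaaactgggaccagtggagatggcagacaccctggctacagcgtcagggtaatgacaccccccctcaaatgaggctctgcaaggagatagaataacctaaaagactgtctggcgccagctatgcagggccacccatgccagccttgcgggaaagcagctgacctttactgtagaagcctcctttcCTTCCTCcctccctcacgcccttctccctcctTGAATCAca
Gpnmb: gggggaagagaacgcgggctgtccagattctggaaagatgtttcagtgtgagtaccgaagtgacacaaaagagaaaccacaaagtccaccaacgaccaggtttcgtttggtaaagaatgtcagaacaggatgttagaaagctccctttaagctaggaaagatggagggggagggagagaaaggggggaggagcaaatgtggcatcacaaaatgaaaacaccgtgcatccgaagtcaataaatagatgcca
Spp1: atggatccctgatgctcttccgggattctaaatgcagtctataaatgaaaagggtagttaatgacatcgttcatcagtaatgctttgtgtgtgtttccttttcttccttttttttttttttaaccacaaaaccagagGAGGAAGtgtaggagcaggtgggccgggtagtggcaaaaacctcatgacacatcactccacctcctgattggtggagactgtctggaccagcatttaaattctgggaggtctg
On mm10, in GENCODE M21, Trem2 (ENSMUSG00000023992) lies at chr17:48346401-48354147, Gpnmb (ENSMUSG00000029816) at chr6:49036546-49070929 and Spp1 (ENSMUSG00000029304) at chr5:104435118-104441050, all protein-coding genes on the plus strand. AP-1 is the Fos and Jun family of factors, and PU.1 is the master factor of the myeloid lineage. The window of Trem2 held both motifs, the AP-1 match ending 3 bases before the start. The window of Spp1 held the PU.1 motif 113 to 107 bases before the start. The E-boxes CACGTG and CATGTG, which the MiT/TFE factors of lysosomal genes can bind, were also searched, and the window of Gpnmb held none of the 4 motifs. Of the 8 members with an entry in the RefSeq table, Trem2, Igf1 and Itgax held the AP-1 motif, Trem2, Spp1 and Igf1 held the PU.1 motif, and Cd9 held CATGTG on the reverse strand. Over 32817 promoter windows of the same length, 6.75% held TGANTCA, 10.6% held GAGGAAG, 6.02% held CACGTG and 12.3% held CATGTG. A match is a description of the letters and not a bound site.

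The 4 libraries held 135851178 to 329888529 UMIs, and 6120 SCDi immune cells, 6572 vehicle immune cells, 8262 SCDi tumour cells and 7009 vehicle tumour cells were kept. Between 9 and 23 barcodes were shared by any pair of libraries, at most 0.314% of the smaller one. Classes were gated on marker genes that are not members. Of SCDi and vehicle cells, 541 and 448 were microglia (P2ry12, Tmem119, Sall1 and Slc2a5) and 1490 and 1422 were macrophages (C1q genes). Monocytes (Ly6c2 and its companions with low C1q) were 1581 SCDi and 1546 vehicle cells. The remaining phagocytes, which met none of these rules, were 539 SCDi and 479 vehicle intermediate cells. CPM here means UMIs per 1000000 UMIs of the class, summed over its cells. Gpr34, P2ry13, Fcrls and Olfml3, microglial markers outside the gate, summed to 1438 CPM in SCDi microglia and 961 CPM in vehicle microglia, against 57.9 CPM in SCDi macrophages and 80.6 CPM in vehicle macrophages. The microglia gate was not pure. In 143 SCDi and 158 vehicle cells of it Ms4a7, a gene of brain macrophages other than microglia, reached 3 UMIs per 10000, a level chosen after the data were seen, while its median in macrophages was 13.4 per 10000 in the SCDi and 12.4 per 10000 in the vehicle library. The remaining 398 SCDi and 290 vehicle cells are called Ms4a7-low microglia, and the others Ms4a7-high cells of the gate.

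Trem2 had its highest level in microglia. The receptor stood at 1036 CPM in SCDi microglia and 806 CPM in vehicle microglia, at 245 and 355 CPM in SCDi and vehicle macrophages, at 116 and 166 CPM in SCDi and vehicle intermediate cells, and at 84.7 and 86.3 CPM in SCDi and vehicle monocytes. The order microglia, macrophages, intermediate cells, monocytes held in both libraries beyond counting error. Trem2 was also detected in the other classes: with each cell thinned to 5000 UMIs, 47.8% of SCDi and 60.8% of vehicle macrophages had a Trem2 UMI, against 24.1% of SCDi and 25.9% of vehicle monocytes. T cells without phagocyte transcripts, a rough guide to free RNA, had one in 4.73% of SCDi and 5.05% of vehicle cells. Their median depth was 11046 UMIs in the SCDi and 11621 UMIs in the vehicle library. Since these T cells were chosen for lacking phagocyte transcripts, they can understate free RNA, here and below. Tyrobp, the adaptor, was near level across the classes, at 2464 CPM in SCDi and 2208 CPM in vehicle microglia, 2569 and 2476 CPM in SCDi and vehicle macrophages, and 3045 and 2823 CPM in SCDi and vehicle monocytes.

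Of the members with lysosomal, lectin or protease-inhibitor roles, Lgals3 was higher in macrophages and monocytes, Gpnmb was at a like level in the microglia gate and in macrophages, and Cst7 was higher in microglia. Lgals3 encodes galectin-3, a lectin that binds damaged lysosomes, and stood at 1466 CPM in SCDi and 1521 CPM in vehicle microglia, against 3696 CPM in SCDi and 4039 CPM in vehicle macrophages. Gpnmb, a glycoprotein of lysosomes and the cell surface, stood at 240 and 247 CPM in SCDi and vehicle microglia, 275 and 357 CPM in SCDi and vehicle macrophages, and 123 and 131 CPM in SCDi and vehicle monocytes. Most of that microglial Gpnmb lay in Ms4a7-high cells of the gate, with 2758 of 2985 UMIs in the SCDi and 2156 of 2733 UMIs in the vehicle library, and Ms4a7-low microglia held 29.9 CPM in the SCDi and 86.1 CPM in the vehicle library. Lgals3 was divided likewise, at 511 and 551 CPM in SCDi and vehicle Ms4a7-low microglia. Cst7 encodes cystatin F, an inhibitor of lysosomal cathepsins. It stood at 150 CPM in SCDi and 140 CPM in vehicle microglia, against 13.4 and 20.1 CPM in SCDi and vehicle macrophages and 12.2 and 11.5 CPM in SCDi and vehicle monocytes. T cells, which are known to express Cst7, held 119 CPM in the SCDi and 152 CPM in the vehicle library, so free Cst7 RNA could not be read from them.

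The secreted members differed in their class pattern. Spp1 encodes osteopontin, a ligand of CD44 and of alpha-v integrins. It stood at 1755 CPM in SCDi and 693 CPM in vehicle microglia, 1397 and 1459 CPM in SCDi and vehicle macrophages, 2585 and 1923 CPM in SCDi and vehicle intermediate cells, and 1730 and 1650 CPM in SCDi and vehicle monocytes. The position of the whole microglia gate therefore depended on the library, above macrophages in the SCDi (log2 ratio 0.33) and below them in the vehicle library (log2 ratio -1.07). Ms4a7-low microglia lay below macrophages in both, with a log2 ratio for Spp1 of -0.30 in the SCDi and -1.41 in the vehicle library. Igf1, the insulin-like growth factor that microglia supply in myelination, was a low transcript. It stood at 34.9 CPM in SCDi and 31.2 CPM in vehicle microglia, 9.81 and 23.6 CPM in SCDi and vehicle macrophages, and 2.04 and 6.42 CPM in SCDi and vehicle monocytes.

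Of the surface members, Cd9 marked microglia and Itgax macrophages. Cd9 encodes a tetraspanin that organises membrane partners. It stood at 727 CPM in SCDi and 573 CPM in vehicle microglia, 89.1 and 123 CPM in SCDi and vehicle macrophages, and 110 and 127 CPM in SCDi and vehicle monocytes, and T cells without phagocyte transcripts held 54.3 CPM in the SCDi and 64.4 CPM in the vehicle library. Itgax encodes CD11c, an integrin chain known from dendritic cells and from activated microglia. It stood at 62.2 and 65.3 CPM in SCDi and vehicle microglia, 108 and 100.2 CPM in SCDi and vehicle macrophages, and 49.9 and 44.3 CPM in SCDi and vehicle monocytes. In the sorted tumour cells Cd9 stood at 1868 CPM in the SCDi and 2194 CPM in the vehicle library, Lgals3 at 1230 and 1457 CPM, and Spp1 at 411 and 503 CPM. These 3 members are therefore not confined to myeloid cells, while Trem2, Tyrobp, Igf1 and Cst7 were under 0.3 CPM in the tumour cells of both libraries.

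**Figure D1:**
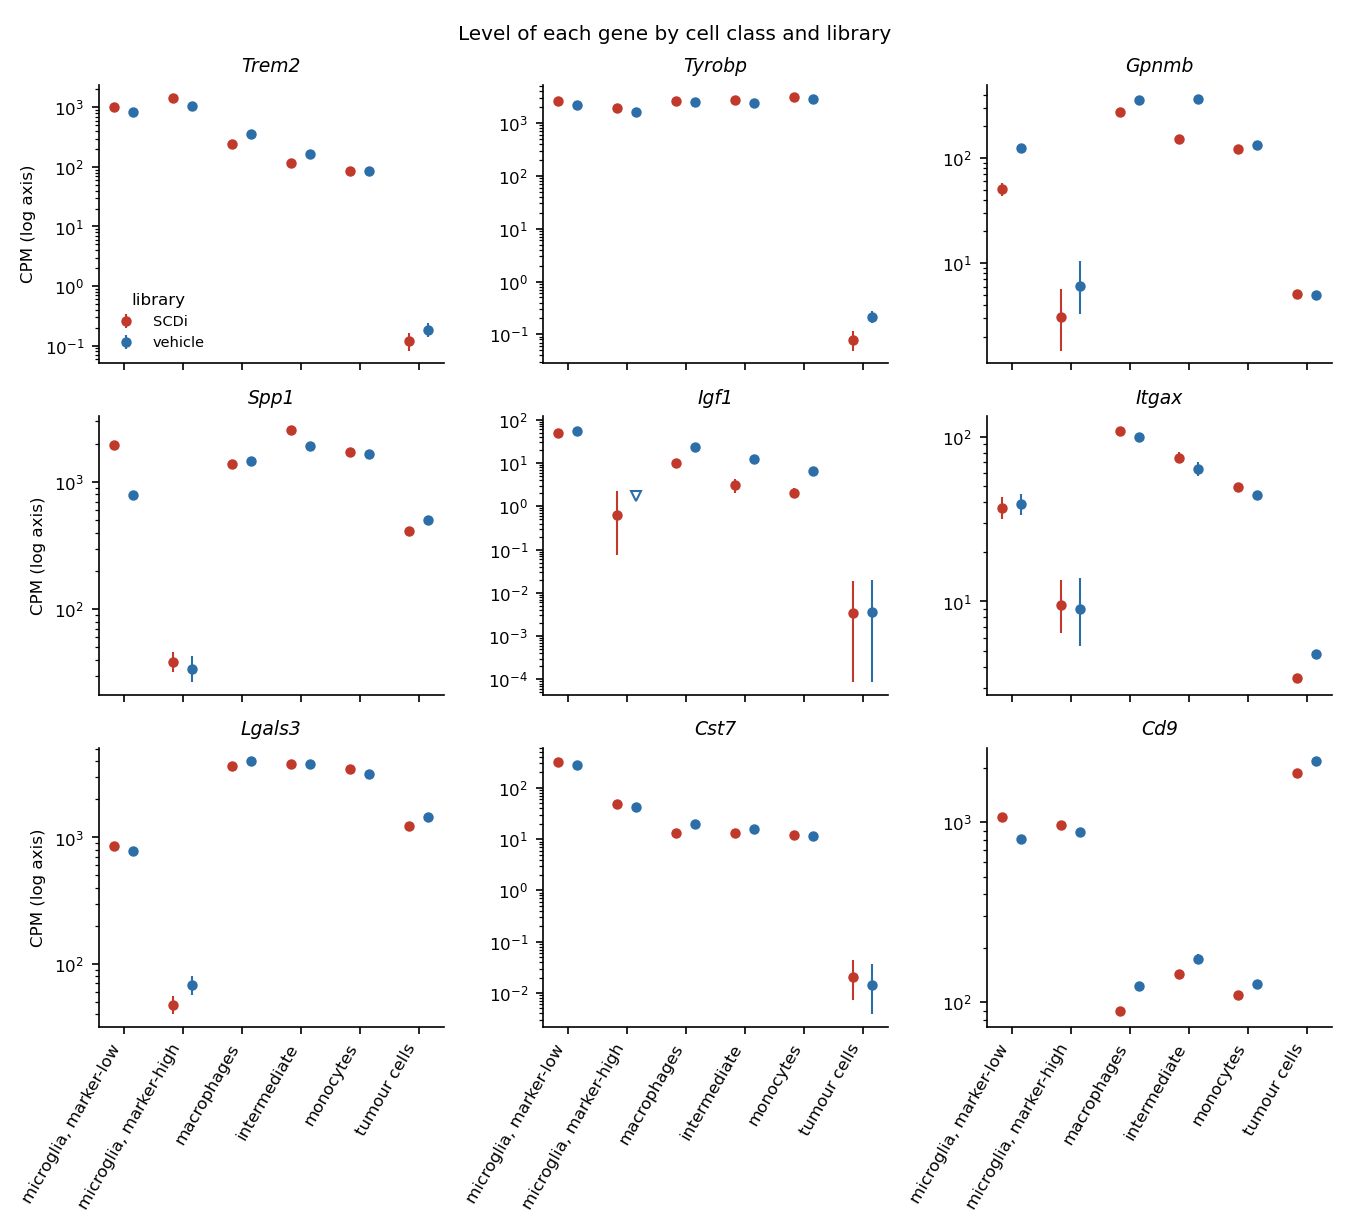
Level of each member in CPM (log axis) by cell class, SCDi left of vehicle, with exact 95% Poisson intervals and open triangles for upper limits at 0 UMIs. Of the classes plotted Trem2 and Cst7 were highest in microglia, Cd9 was higher in microglia than in the other immune classes plotted, Lgals3 was higher in macrophages, intermediate cells and monocytes than in microglia, and Tyrobp was near level.

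Set against macrophages, microglia had 4 of 9 members at least 1.5-fold higher in the SCDi library (Trem2, Igf1, Cst7 and Cd9), where 17.1% of all genes tested were that much higher. In the vehicle library 3 were (Trem2, Cst7 and Cd9), against 14.7% of all genes. At least 1.5-fold lower in microglia were Itgax and Lgals3 in the SCDi library, against 13.7% of all genes, and these with Spp1 in the vehicle library, against 10.7%. Genes counted as tested, here and below, had at least 20 CPM in either of the classes or libraries compared. In the SCDi library Igf1 and Cst7 reached 20 CPM in microglia alone. The largest ratios were those of Cst7, with log2 3.49 in the SCDi and 2.80 in the vehicle library, and of Cd9, with 3.03 and 2.22. Trem2 had a log2 ratio of 2.08 in the SCDi and 1.18 in the vehicle library. Set against monocytes, macrophages had Trem2, Gpnmb and Itgax at least 1.5-fold higher in the SCDi library (16.4% of all genes). In the vehicle library these 3 were, and Igf1 and Cst7 with them (16.2% of all genes). Igf1 and Cst7 reached 20 CPM in vehicle macrophages alone, not in vehicle monocytes or in either SCDi class. They could thus be counted in the vehicle library only, and had to be higher in macrophages there. Igf1 had a log2 ratio of macrophages over monocytes of 2.25 in the SCDi and 1.87 in the vehicle library, and Cst7 one of 0.14 and 0.80. None of the members was that much lower, against 9.54% of all genes in the SCDi and 9.84% in the vehicle library.

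Within microglia the members split into those that went with low homeostatic markers and those that did not. Ms4a7-low microglia were divided at 15 UMIs per 10000 of the gate genes together, a level chosen after the data were seen. This left 150 SCDi and 160 vehicle marker-low cells, and 248 SCDi and 130 vehicle marker-high cells. The division is a range and not a pair of types, since 140 SCDi and 117 vehicle cells lay within 1.5-fold of the line. Spp1 stood at 1963 CPM in SCDi marker-low cells, against 38.4 CPM in SCDi marker-high cells, and at 789 CPM in vehicle marker-low cells, against 33.9 CPM in vehicle marker-high cells. Gpnmb stood at 50.2 CPM in SCDi marker-low cells, against 3.07 CPM in SCDi marker-high cells, and at 123 CPM in vehicle marker-low cells, against 6.12 CPM in vehicle marker-high cells. These transcripts were unevenly spread: 3 marker-low cells of each library held 50% of the Gpnmb UMIs, and 3 SCDi and 5 vehicle marker-low cells held 50% of the Spp1 UMIs. The marker-high levels were close to those of T cells without phagocyte transcripts, which held 28.0 CPM of Spp1 and 3.94 CPM of Gpnmb in the SCDi library, and 31.2 CPM of Spp1 and 3.84 CPM of Gpnmb in the vehicle library.

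Lgals3 stood at 860 CPM in SCDi marker-low cells, against 47.0 CPM in SCDi marker-high cells, and at 775 CPM in vehicle marker-low cells, against 67.3 CPM in vehicle marker-high cells. Its marker-high level was below that of T cells without phagocyte transcripts, at 97.6 CPM in the SCDi and 133 CPM in the vehicle library. Whether the marker-high Lgals3 level was free RNA was not tested. Igf1 had 216 UMIs in SCDi marker-low cells, against 2 in SCDi marker-high cells, and 248 in vehicle marker-low cells, against 0 in vehicle marker-high cells. At a floor of 3 counts for the marker-high class, Igf1 was at least 38.4-fold higher in vehicle marker-low cells. Cst7 had a log2 ratio of marker-low over marker-high cells of 2.76 in the SCDi and 2.75 in the vehicle library, and Itgax one of 1.94 and 2.09. Of the 6 members with at least 20 CPM in both states, 3 (Spp1, Lgals3 and Cst7) were at least 1.5-fold higher in marker-low cells in each library, against 22.5% of all genes in the SCDi and 17.2% in the vehicle library. Gpnmb, Igf1 and Itgax reached 20 CPM in marker-low cells alone, so that they had to be higher there to be counted, and their ratios are a description. None of the 9 was that much lower, against 24.1% and 17.7% of all genes in the SCDi and vehicle libraries.

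Trem2 and Cd9 did not follow. Trem2 stood at 1022 CPM in SCDi marker-low cells, against 1443 CPM in SCDi marker-high cells, and at 834 CPM in vehicle marker-low cells, against 1058 CPM in vehicle marker-high cells. Cd9 stood at 1068 CPM in SCDi marker-low cells, against 968 CPM in SCDi marker-high cells, and at 811 and 886 CPM in vehicle marker-low and marker-high cells. Receptor transcript was thus found in most microglial cells of both states: 89.2% of SCDi and 86.9% of vehicle marker-low cells had a Trem2 UMI at 5000 UMIs, as did 99.6% of SCDi and 98.4% of vehicle marker-high cells. Tyrobp was modestly higher in marker-low cells, with log2 0.41 in the SCDi and 0.46 in the vehicle library.

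**Figure D2:**
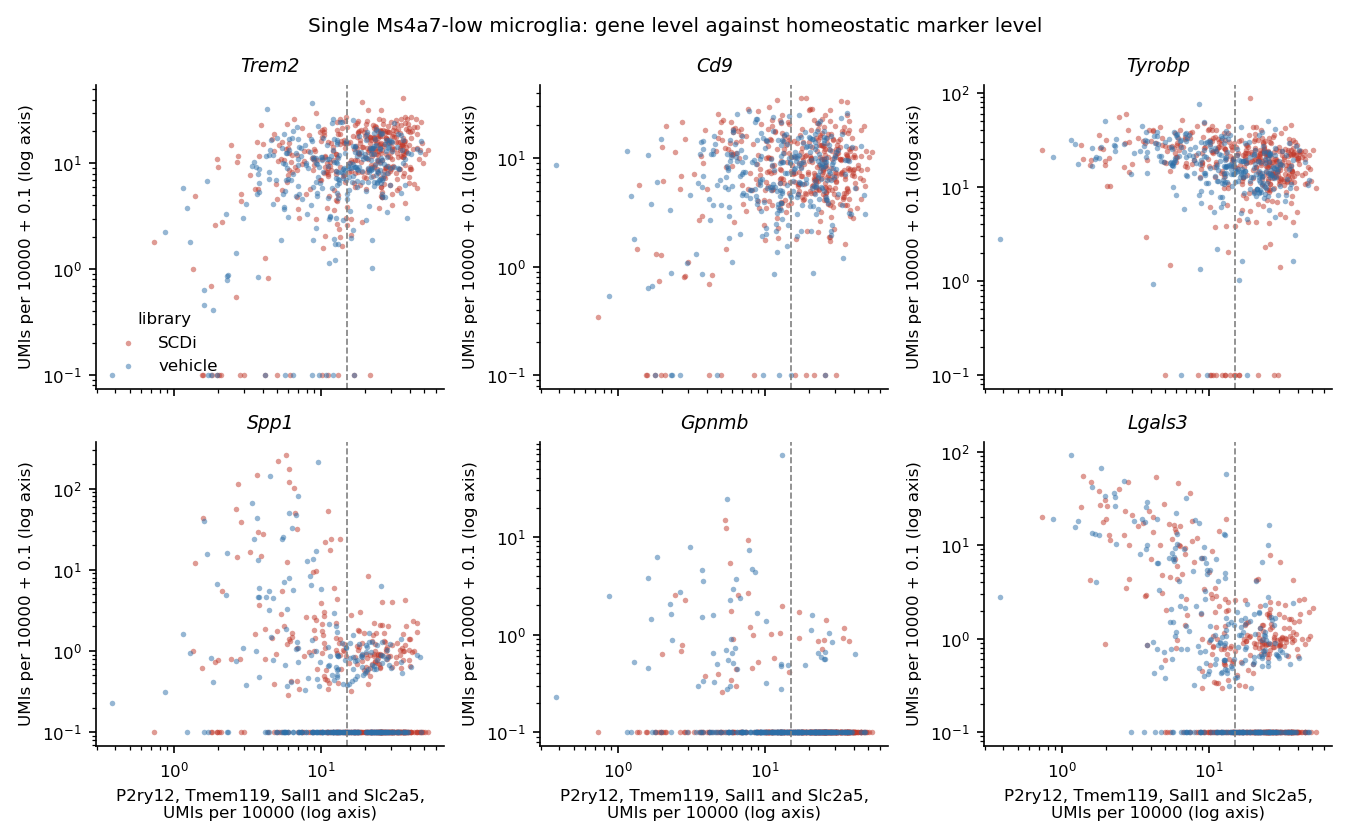
Levels per 10000 UMIs in single Ms4a7-low microglia against the sum of the gate genes P2ry12, Tmem119, Sall1 and Slc2a5 (both log axes, SCDi red, vehicle blue, dashed line at 15 per 10000 UMIs). High Spp1, Gpnmb and Lgals3 lay at low gate-gene sums, while Trem2, Cd9 and Tyrobp were spread over the range.

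Other genes of the lipid programme went with the marker-low state, chosen here after their values were seen. Apoe, the lipoprotein of brain lipid transport, had a log2 ratio of marker-low over marker-high cells of 2.899 in the SCDi and 3.78 in the vehicle library. Fabp5, a fatty acid binding protein, had 3.25 and 3.37, and Apoc2, an activator of lipoprotein lipase, had 3.62 and 3.90. Mrc1, the mannose receptor CD206 of brain border macrophages, also had a high ratio, of 2.95 and 2.07. It stood at 81.8 CPM in SCDi marker-low cells, against 10.4 CPM in SCDi marker-high cells, and at 149 CPM in vehicle marker-low cells, against 35.3 CPM in vehicle marker-high cells. Ms4a7 was also higher in marker-low cells, with log2 1.83 in the SCDi and 1.33 in the vehicle library. The cycling gene Mki67 had 2.41 and 1.99. Ly6c2, a monocyte marker, had a median of 0 in both states and both libraries. Marker-low cells were also deeper, with a median of 23574.5 UMIs in the SCDi and 25512 in the vehicle library, against 12328.5 and 15394 in SCDi and vehicle marker-high cells. The part of macrophage transcripts, of cycling cells and of depth in these ratios was not tested.

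SCDi macrophages held less Trem2, Gpnmb, Cd9 and Igf1 RNA than vehicle macrophages. Of 9 members, 7 were lower and 2 higher, with a median log2 ratio of -0.37 against 0.0012 over all 6215 genes tested. Igf1 alone passed 1.5-fold, in a library pair where 1.43% of all genes were that much lower and 0.628% that much higher, but Igf1, like Cst7, reached 20 CPM in vehicle macrophages alone and had to be lower in SCDi cells to be counted. Igf1 had 345 UMIs in SCDi macrophages and 656 in vehicle macrophages, a log2 ratio of -1.26 (-1.46 to -1.07). Trem2 had 8636 UMIs in SCDi and 9893 in vehicle macrophages, a log2 ratio of -0.53 (-0.57 to -0.49), and 2.06% of all genes tested lay below it. Gpnmb had a log2 ratio of -0.37 (-0.41 to -0.33) and Cd9 one of -0.47 (-0.54 to -0.40).

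The lower Trem2 and Gpnmb of SCDi macrophages was also seen as fewer cells with a transcript at equal depth. Gpnmb was detected at 5000 UMIs in 21.3% (19.1 to 23.5) of SCDi macrophages and 28.9% (26.4 to 31.5) of vehicle macrophages. Trem2 was detected in 47.8% (45.1 to 50.4) of SCDi and 60.8% (58.1 to 63.5) of vehicle macrophages. Over 20 other random draws of 5000 UMIs the difference lay between -8.48 and -6.00 percentage points for Gpnmb and between -15.6 and -10.8 for Trem2. Cst7, at 13.4 CPM in SCDi and 20.1 CPM in vehicle macrophages, had a log2 ratio of -0.58, just short of 1.5-fold. Tyrobp, Spp1, Lgals3 and Itgax differed by log2 0.13 or less, at 0.05, -0.06, -0.13 and 0.11.

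SCDi microglia held more Spp1, Trem2 and Cd9 RNA than vehicle microglia, and differed most in Spp1. Trem2 had a log2 ratio of 0.36 (0.32 to 0.40) and Cd9 one of 0.35 (0.30 to 0.39), while Gpnmb (-0.04), Lgals3 (-0.05) and Itgax (-0.07) stood close to level. Spp1 had 21842 UMIs in SCDi and 7685 in vehicle microglia, a log2 ratio of 1.34 (1.30 to 1.38). It was the 1 member of 9 past 1.5-fold, against 0.626% of all genes higher and 0.855% lower. In all, 6 members were higher and 3 lower, and the median log2 ratio was 0.16 against -0.02 over all 6546 genes tested.

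The Spp1 difference rested on few cells. In SCDi microglia 8 cells held 50% of the Spp1 UMIs, the highest of them 3038, and in vehicle microglia 14 cells did, the highest 635. The share of cells with an Spp1 UMI at 5000 UMIs was 35.1% (31.0 to 39.4) in SCDi and 33.0% (28.6 to 37.7) in vehicle microglia. Without the 10 cells richest in Spp1 in each library the log2 ratio was 0.91, and averaged over single cells, each scaled to its own depth, it was 0.92. Both alternatives kept Spp1 past 1.5-fold, and the first was chosen after the data were seen. Gated dendritic cells differed by a like ratio at a lower level, with 267 CPM of Spp1 in the SCDi and 104 CPM in the vehicle library (log2 1.36, 1.27 to 1.46), where 3 SCDi and 2 vehicle cells held 50% of the UMIs.

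**Figure D3:**
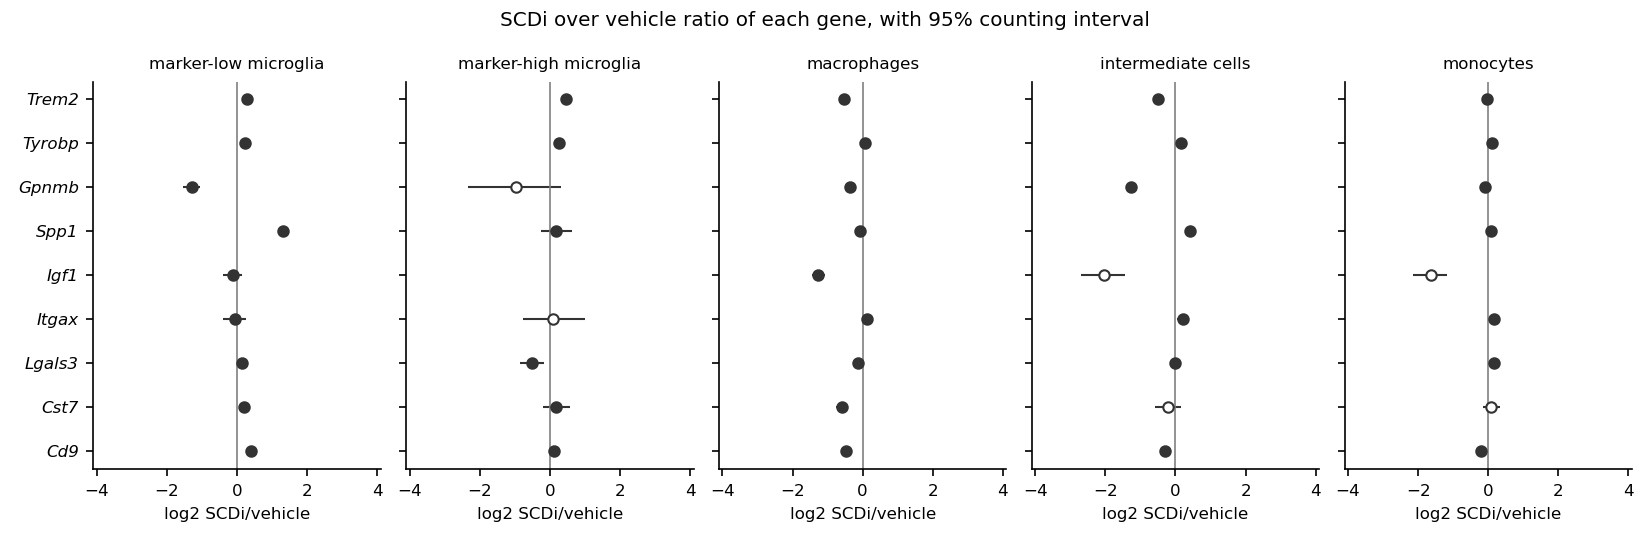
Log2 ratio of SCDi over vehicle for each member by cell class, with 95% intervals for counting error; open circles had under 20 CPM in both libraries. Trem2 and Cd9 lay above 0 in both microglial states and below 0 in macrophages, and Spp1 reached 1.32 and Gpnmb -1.29 in marker-low microglia; Igf1 in marker-high microglia, with 0 vehicle UMIs, is left out.

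Trem2, Tyrobp and Cd9 were higher in the SCDi library beyond counting error in each subset of the microglia gate, while Gpnmb was lower in Ms4a7-low microglia and higher, with a log2 ratio of 0.20 (0.12 to 0.29), in the Ms4a7-high cells. In Ms4a7-low microglia 4 members were higher and 5 lower, with a median log2 ratio of -0.01. Spp1 passed 1.5-fold upward, at 1.05 (0.99 to 1.105), against 1.08% of all genes, and Gpnmb downward, at -1.52 (-1.75 to -1.30), against 2.49%. Gpnmb had 227 UMIs in SCDi and 577 in vehicle Ms4a7-low microglia, but 3 cells held 50% of them in each library, and it was detected at 5000 UMIs in 5.35% (3.30 to 8.14) of SCDi and 7.89% (5.01 to 11.7) of vehicle cells. In the marker-low cells 6 members were higher and 3 lower, with a median of 0.19, Spp1 at 1.32 and Gpnmb at -1.29, where 1.24% of all genes were 1.5-fold higher and 3.43% lower. Marker-high cells had Trem2 at log2 0.45 (0.38 to 0.52) and none of 6 members tested past 1.5-fold, against 2.44% of all genes higher and 4.57% lower. In the Ms4a7-high cells of the gate 7 members were higher and 2 lower. There Spp1 (1.57), Igf1 (0.98), Cst7 (0.79) and Cd9 (0.62) passed 1.5-fold upward and none downward, against 1.52% of all genes higher and 1.73% lower. Genes of early stress during tissue dissociation also differed between the libraries. Of these, 9 of 9 tested were higher in SCDi microglia (median log2 0.27, Jun 0.52, Egr1 0.44) and 9 of 9 lower in SCDi macrophages (median -0.33, Jun -0.54, Fosb -0.76). In marker-low microglia 1 of 9 was higher and 8 were lower (median -0.04). In monocytes 1 of 10 was higher and 9 were lower (median -0.19), and in intermediate cells 2 of 9 were higher and 7 lower (median -0.14). Their part in the results was not tested.

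Monocytes held their members nearly level. Of 7 tested, none passed 1.5-fold, against 0.456% of all genes higher and 0.911% lower, and the median log2 ratio was 0.07 against -0.02 over all genes. Igf1, under the 20 CPM needed for that count, had 51 UMIs in SCDi and 150 in vehicle monocytes, a log2 ratio of -1.65 (-2.14 to -1.19), but 5 vehicle cells held 50% of its UMIs. In intermediate cells Gpnmb stood at 152 CPM in the SCDi and 363 CPM in the vehicle library, a log2 ratio of -1.26 (-1.35 to -1.17). It was the 1 of 7 tested past 1.5-fold, against 2.58% of all genes lower and 0.996% higher. Igf1 was at 3.04 and 12.6 CPM there in the SCDi and vehicle libraries, Trem2 had a log2 ratio of -0.51, and Spp1 one of 0.43. Markers of other cells differed beside them: the 4 erythroid markers summed to 0.52 CPM in SCDi and 107 CPM in vehicle intermediate cells, the 2 granulocyte markers to 11.6 and 230 CPM, and the 4 epithelial markers, 1 of which was at 0 in both libraries, to 1.68 and 24.4 CPM. Their part in the Gpnmb ratio was not tested.

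In tumour cells the 3 members that passed 20 CPM were all somewhat lower in the SCDi library. Their log2 ratios were -0.29 for Spp1, -0.24 for Lgals3 and -0.23 for Cd9, and none passed 1.5-fold, against 0.251% of all genes higher and 0.597% lower.

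Members were also counted per cell, with each cell thinned to 5000 UMIs and shallower cells left out (83 SCDi and 135 vehicle macrophages, 28 SCDi and 12 vehicle microglia). At least 5 of the 9 members were detected in 27.9% (25.6 to 30.4) of SCDi macrophages and 34.2% (31.6 to 36.9) of vehicle macrophages. The difference was -6.26 percentage points, with a counting interval of -9.74 to -2.76, and over 20 other random draws it lay between -9.63 and -3.34. The same share was 35.3% in SCDi and 37.6% in vehicle microglia, 20.9% and 23.0% in SCDi and vehicle intermediate cells, and 12.4% and 14.1% in SCDi and vehicle monocytes, and these pairs overlapped in their intervals. The SCDi microglia share lay above the 20 other draws, which gave 31.4% to 34.7%. Over those draws the SCDi minus vehicle difference lay between -6.70 and -1.23 percentage points in microglia and between -1.26 and 0.52 in monocytes. In marker-low microglia the share with at least 5 members was 49.6% (41.1 to 58.2) in the SCDi and 41.8% (33.9 to 50.1) in the vehicle library, against 18 of 235 SCDi and 12 of 126 vehicle marker-high microglia. The SCDi marker-low share lay above the 20 other draws, which gave 38.9% to 47.5%, and the vehicle draws gave 39.2% to 45.8%. In the Ms4a7-high cells of the gate the share was higher than in either, at 67.6% (59.2 to 75.3) in the SCDi and 56.1% (47.9 to 64.0) in the vehicle library. At least 7 members were found in 9.35% of SCDi and 5.88% of vehicle marker-low cells and in none of the marker-high cells. A cell with all 9 was rare, with 2 SCDi and 1 vehicle cell of the microglia gate and no macrophage.

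**Figure D4:**
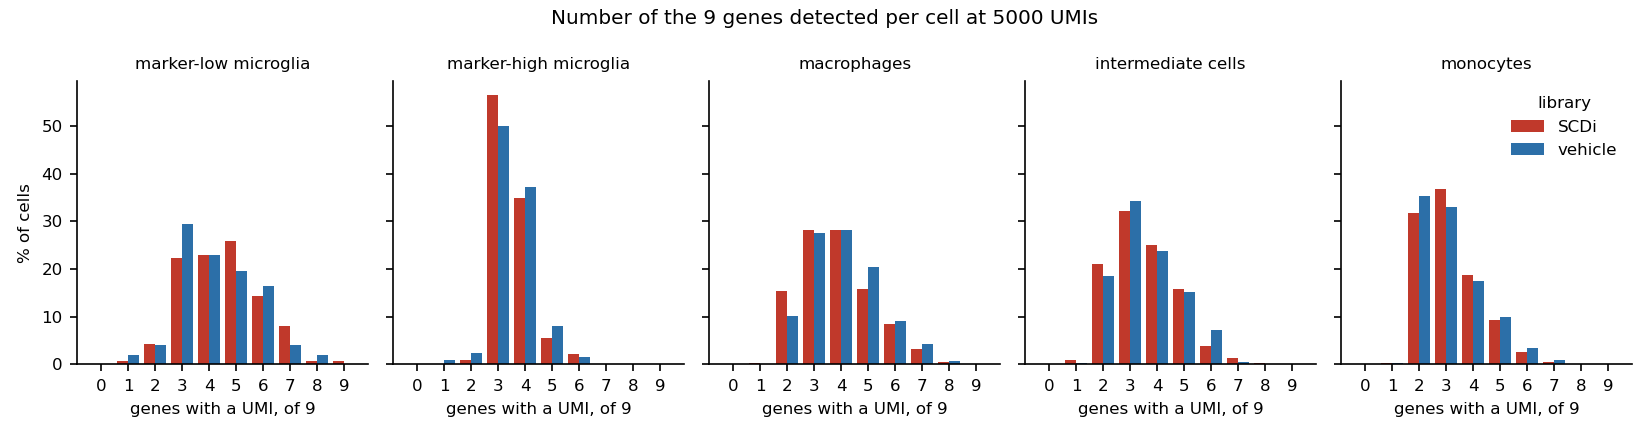
Share of cells by the number of members detected, with each cell thinned to 5000 UMIs, SCDi beside vehicle in each class. Vehicle macrophages had a larger share with 5 or more members (34.2%) than SCDi macrophages (27.9%), and of the classes plotted marker-low microglia had the largest shares.

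Pairs of members were compared cell by cell in Ms4a7-low microglia, macrophages and monocytes, as a description over 36 pairs in which cells share a library and free RNA. In Ms4a7-low microglia Spp1 went with Cst7, with a Spearman rho of 0.28 in the SCDi and 0.34 in the vehicle library, and with Lgals3, with rho 0.25 and 0.28. Spp1 and Cst7 were found in the same cell 1.75 times as often as their shares multiplied in the SCDi library and 1.78 times in the vehicle library. Gpnmb with Spp1 had rho 0.14 and 0.16, resting on 10 cells with both in each library. Trem2 stood outside this group, with rho -0.29 and -0.17 with Lgals3, and was nearest to Cd9, with rho 0.37 and 0.24. The median rho over all pairs was 0.12 in each library, so most pairs were only weakly related.

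Macrophages had a different arrangement, in which Trem2 went with Gpnmb. That pair had rho 0.37 in the SCDi and 0.36 in the vehicle library, and 221 SCDi and 296 vehicle cells held both, 1.55 and 1.31 times the product of the shares. Over 20 other random draws its rho lay between 0.34 and 0.39 in the SCDi and between 0.290 and 0.357 in the vehicle library. The vehicle rho, 0.364 before rounding, thus lay above all of these draws, whose median was 0.317. The SCDi minus vehicle difference in rho lay between 0.013 and 0.088 over the draws. Gpnmb with Cd9 had rho 0.28 and 0.18, and Gpnmb with Lgals3 0.26 and 0.21. Gpnmb and Igf1, both in few cells, met 3.10 times as often as the product of their shares in the SCDi and 1.86 times in the vehicle library. The median rho over all pairs was 0.07 in the SCDi and 0.08 in the vehicle library, so most pairs were close to independent. In monocytes Spp1 with Lgals3 had rho 0.34 and 0.29, and Gpnmb with Lgals3 0.31 and 0.29. The difference in arrangement between microglia and macrophages was not tested.

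**Figure D5:**
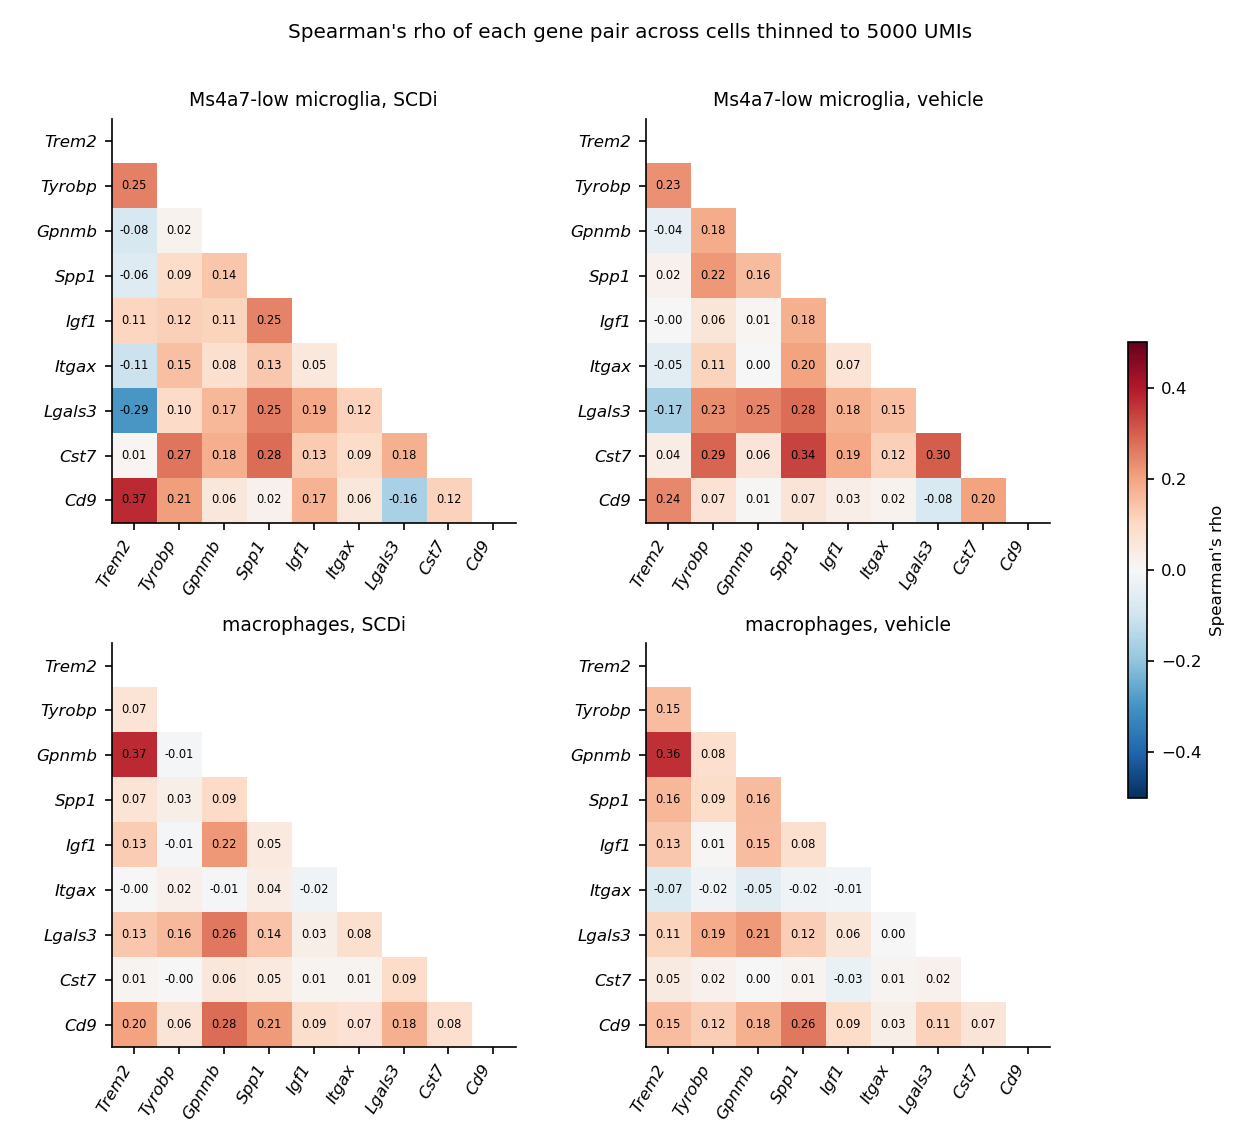
Spearman rho of each pair of members over single cells thinned to 5000 UMIs, SCDi left of vehicle, for Ms4a7-low microglia and macrophages. Trem2 with Cd9 (0.37 and 0.24) and Spp1 with Cst7 (0.28 and 0.34) were among the highest pairs in microglia, and Trem2 with Gpnmb was the highest in macrophages (0.37 and 0.36).

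Macrophages rich in Gpnmb carried more of some lipid and lysosomal genes and less of others. Cells with at least 2 Gpnmb UMIs after thinning (211 SCDi and 259 vehicle cells) were set against cells with none (1108 SCDi and 915 vehicle cells), and genes were named after their values were seen. Apoe stood at 20952 CPM in Gpnmb-rich SCDi macrophages, against 3861 CPM in those without, and at 23783 CPM in Gpnmb-rich vehicle macrophages, against 6622 CPM. Trem2 had a log2 ratio between these cells of 2.31 in the SCDi and 1.52 in the vehicle library, Igf1 of 3.19 and 1.67, Apoc2 of 2.53 and 1.70, and Ctsd, the lysosomal protease cathepsin D, of 1.93 and 1.58. Mrc1 was lower in Gpnmb-rich cells, with log2 -1.65 in the SCDi and -1.72 in the vehicle library. Plin2, the lipid droplet coat protein, was slightly lower, with -0.12 and -0.21. The lipid genes Lpl (-0.74 and -0.41) and Cd36 (-0.39 and -0.27) and the cathepsin gene Ctsl (-0.32 and -0.40) were lower too.

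Macrophages rich in Spp1 were less rich in Trem2 than the Gpnmb-rich cells. With the same rule (441 SCDi and 403 vehicle cells, against 792 and 742 without), Trem2 had a log2 ratio of 0.70 in the SCDi and 0.78 in the vehicle library, and Gpnmb of 1.40 and 1.45. Cd9 had 1.59 and 1.63, Cd36, a scavenger receptor for oxidised lipoproteins, 1.22 and 1.09, Pdpn 1.62 and 1.02, and Arg1, which breaks down arginine, 2.75 and 0.48. These ratios describe cells chosen by the gene named and are not tests.

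The other genes of the programme were followed in lists whose members were chosen with earlier results of these data known. Of 34 other disease-associated and lipid macrophage genes, 29 were tested in macrophages. In SCDi cells 9 were higher and 20 lower, the median log2 ratio being -0.11. The apolipoprotein Apoc2 stood at 131 CPM in SCDi and 295 CPM in vehicle macrophages (log2 -1.17), and Fabp4, a fatty acid binding protein, had -1.05. At the other end Ch25h, which makes 25-hydroxycholesterol, stood at 78.9 CPM in SCDi and 45.7 CPM in vehicle macrophages (log2 0.79), and Lpl, lipoprotein lipase, had 0.34. In microglia 30 were tested, with 21 higher and 9 lower and a median of 0.18. Ch25h had log2 1.14 there, Lpl 0.92, Csf1 -0.23 and Apoc2 -0.55. Ch25h was thus higher, and Apoc2 lower, in SCDi cells of both classes.

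Genes upstream and downstream of the receptor were followed too. Of 16 TREM2 and TYROBP signalling genes, 15 were tested, with 3 higher and 12 lower in SCDi macrophages (median log2 -0.15) and 6 higher and 9 lower in SCDi microglia (median -0.02), and none passed 1.5-fold. Of 5 genes that shed TREM2 from the cell surface, 2 were higher and 3 lower in both classes, with medians of -0.15 in macrophages and -0.05 in microglia. Adam10 and Adam17, the sheddases, had -0.25 and -0.27 in macrophages. A list of 10 other receptors was drawn up as partners of TYROBP, though not all of them are established partners. Of these 5 were tested in macrophages, with 3 higher and 2 lower (median 0.14, the value of Pirb). Among them Sirpb1a at 0.62 and Cd300lb at -0.61 were both past 1.5-fold. In microglia 4 were tested, with 3 higher and 1 lower (median 0.06).

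Of 7 receptors for osteopontin and IGF1, 5 were tested in macrophages, with a median log2 ratio of -0.43. Cd44, Itgav, Itgb5 and Insr were lower in SCDi cells beyond counting error, Itgb1 was level at -0.0044 (-0.05 to 0.04), and none passed 1.5-fold. Cd44 stood at 298 CPM in SCDi and 400 CPM in vehicle macrophages, and Itgb5, an integrin chain, at 148 and 219 CPM. In microglia 1 of 6 tested was higher and 5 were lower, with a median of -0.05. None of 6 IGF binding protein genes reached 20 CPM in either class. Of the 4 MiT/TFE factors, which drive lysosomal genes and are known activators of Gpnmb, all were tested in macrophages, with 2 higher and 2 lower (median -0.07), and 3 in microglia, with 1 higher and 2 lower (median -0.23). Mitf itself stood at 171 CPM in SCDi and 297 CPM in vehicle macrophages (log2 -0.80) and had -0.36 in the whole microglia gate. In Ms4a7-low microglia the median of these factors was -0.04, and Mitf had -0.08 (-0.20 to 0.03). Mitf had -0.01 in marker-low and -0.25 in marker-high cells. Of 9 homeostatic microglia genes outside the gate, all were higher in SCDi microglia (median 0.29, Fcrls 1.00 and Gpr34 0.71). Marker-high cells, in which all 9 were higher too, made up 248 of 398 Ms4a7-low microglia in the SCDi and 130 of 290 in the vehicle library, and in marker-low cells 4 were higher and 5 lower (median -0.07). In macrophages 2 of 6 tested were higher and 4 lower (median -0.33).

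The genes whose levels over 11 cell classes in 2 libraries each lay closest to the mean of the members were Itm2b (Pearson r 0.98), Tmem104 (0.98), Ctsa (0.98), Adgrl2 (0.98) and P2ry6 (0.97), on log2(CPM + 1) over 22 points that share libraries. Among the members themselves Trem2 (0.94) and Gpnmb (0.93) were closest to the mean, while Lgals3 (0.32) and Cd9 (-0.40) departed from it, tumour cells included.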

How the data were processed

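The deposited files are raw UMI count matrices, made by the authors with Cell Ranger 7.1.0 on mm10, per the submitters' processing notes. The sources used here name no gene annotation and do not say if introns were counted. Barcodes with under 300 genes or over 15% mitochondrial UMIs were left out. The automatic threshold of a Scrublet-type doublet score marked at most 0.031% of immune barcodes, so the highest scores were removed in a share that grew with the number of barcodes, which took 333 SCDi immune, 387 vehicle immune, 633 SCDi tumour and 444 vehicle tumour barcodes.

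Lymphoid, granulocyte and dendritic cells were gated first. Among cells with at least 3 UMIs of general phagocyte genes, microglia had at least 3 UMIs of their gate genes over at least 2 of the 4, macrophages at least 10 C1q UMIs per 10000, and monocytes at least 3 monocyte-gene UMIs per 10000 with C1q under 5. Macrophages also needed more C1q UMIs than monocyte-gene UMIs. All remaining cells with these phagocyte genes were called intermediate, so that class is a remainder and not a double-positive gate. T cells without phagocyte transcripts were chosen after the data were seen. The gates were imperfect: the plasmacytoid gate took 45 SCDi and 46 vehicle cells that met the microglia markers with Ms4a7 under the cut, through Cox6a2, and 92 SCDi and 142 vehicle gated T cells met the C1q cut.

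Counts were summed per class and library and scaled to CPM. Log2 ratios had 0.5 counts added and exact conditional binomial intervals. Shares had Clopper-Pearson intervals and levels exact Poisson intervals, at 95%. Sequencing of 1 pooled library a group gave no test, and intervals cover counting error only. Interval coverage and thinning were checked on simulated data. Thinning draws UMIs at random, so 20 other draws were added after the data were seen. A listed gene is not reported here. The members and gene lists were chosen with earlier results of these data known. The genes named were the members and, from each list, the 2 highest and 2 lowest ratios in macrophages and in microglia, or those said to be chosen after their values were seen. Software was python 3.11.15, numpy 2.4.6, scipy 1.17.1, pandas 2.3.3, scanpy 1.11.5, igraph 0.11.9 and matplotlib 3.10.9.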

Additional observations from a re-analysis of the deposited data

Results flagged for a closer look

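For 4 members the SCDi over vehicle ratio went opposite ways in microglia and macrophages with both counting intervals off 0. The log2 ratio in microglia minus that in macrophages was 0.896 for Trem2 (0.36 against -0.53), 1.4 for Spp1 (1.34 against -0.06), 0.69 for Cst7 (0.11 against -0.58) and 0.813 for Cd9 (0.35 against -0.47). With 1 pooled library a group these differences were not tested. Igf1 (0.16 against -1.26) and Itgax (-0.07 against 0.11) also had opposite signs, with microglial intervals that span 0. Under other settings the sign turned for microglial Cst7 (-0.31 to 0.13) and for macrophage Spp1 (-0.11 to 0.03).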

How the results depend on the processing

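No paired analysis was possible because each group has 1 library. The median log2 ratio of the members in microglia, 0.16, was 0.0824 with no doublet removal, 0.195 with gate thresholds doubled, 0.129 with them halved, -0.00975 with Ms4a7-low cells only, and -0.0579 averaged over single cells scaled to their own depth. In macrophages, -0.37 became -0.445 with thresholds halved and -0.418 without the 10 cells richest in each gene. In monocytes, 0.07 became -0.0045 with thresholds halved, 0.0217 with Leiden clusters, 0.0437 without the neutrophil and plasmacytoid gates, 0.0898 with median-of-ratios scaling, -0.0442 averaged over single cells and 0.0142 without the 10 richest cells. The SCDi minus vehicle difference in the share of cells with at least 5 members, -6.26 percentage points in macrophages at 5000 UMIs a cell, was -2.18 at 2000 UMIs. At 10000 UMIs it was 0.89 in monocytes, against -1.71 at 5000, and 3.75 in intermediate cells, against -2.09. The Leiden alternative gave no intermediate class. With it 8 of 27 member ratios had the other sign, and over all alternatives 33 of 396 did. Each cluster was named by its commonest gated class. Those named macrophages held 41.1% to 79.3% gated macrophages, and those named microglia held 50.9% and 96.6% gated microglia.

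Over all alternatives run, macrophage log2 ratios ranged from -0.57 to -0.40 for Trem2, -0.44 to -0.36 for Gpnmb, -0.51 to -0.34 for Cd9, -1.45 to -1.09 for Igf1 and -1.004 to -0.34 for Cst7. Microglial ones ranged from 0.84 to 1.36 for Spp1, 0.16 to 0.44 for Trem2, 0.24 to 0.41 for Cd9, -0.31 to 0.13 for Cst7, -0.48 to 0.45 for Lgals3, -0.36 to 0.65 for Igf1, -0.27 to 0.15 for Itgax and -1.52 to -0.02 for Gpnmb. The signs of microglial Cst7, Lgals3, Igf1 and Itgax, and the size for Gpnmb, thus depended on the setting, and the cause was not tested. Keeping Ms4a7-low cells only, leaving out the richest cells and leaving out the 2 gates were chosen after seeing the data. Depth limits Igf1 in monocytes and intermediate cells, with 29 to 150 UMIs a class and library.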
